A study of Drosophila melanogaster with 2 samples.

Results

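The bins described here are 10 kb bins of the Drosophila genome in which interaction at long range outweighed interaction at short range. For each bin of the chromosome arms 2L, 2R, 3L, 3R and X, the normalised signal at distances of 10 to 50 kb was divided by that at 60 to 500 kb on the same arm, and the bins chosen by a ratio of 0.60 or less are called member bins. Bins with a raw total below 0.25 of the median of their arm were left out. There were 1613 member bins among 11456 eligible bins, a share of 14.1%, and the remaining 9843 are called other bins. Since the bins were selected on this ratio, the ratio and the signal from 10 to 500 kb are given as a description only.

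The study mapped chromosome contacts by Hi-C in Kc cells, an established Drosophila cell line also known as Kc167, to ask how domains of histone modification relate to the folding of chromosomes. Both samples were untreated replicates of this line, fixed with formaldehyde and cut with DpnII, and the deposited map combines them, so that there is no comparison between groups and no spread between replicates. The map held 34287983 di-tags, the ligated pairs of fragments that Hi-C counts, over 8265968 pairs of bins. Of the listed pairs, 76.0% held a single di-tag. A member bin held a median of 4616 di-tags on its own arm (1160 to 9604), against a median of 4991 for the other bins. Coordinates are those of release 5 of the genome.

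In Hi-C, DNA that lay close together in the fixed nucleus is cut and ligated, so that the number of joined fragments reports how often a pair of regions was in contact. Contact falls steeply with distance along the chromosome, and it is raised inside topologically associating domains (TADs), contiguous stretches whose parts meet more with each other than with their flanks. In Drosophila, small TADs and the gaps between larger ones are rich in constitutively active genes, whereas many large TADs are gene-poor, silent or bound by Polycomb proteins.

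The median ratio of member bins was 0.499 (quartiles 0.451 and 0.555), against 1.11 (quartiles 0.826 and 1.54) for the other bins. The ratio formed a continuous distribution and the threshold fell on its rising side. There were 451 bins between 0.55 and 0.60, just inside, and 530 between 0.60 and 0.65, just outside. On the X, the member chrX:21450001-21460000 had a ratio of 0.5999, and on 3R the bin chr3R:22500001-22510000 was left out at 0.6001. The member bins are therefore the low end of a gradient and not a separate class.

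Most of the 5 lowest ratios came from bins whose values differed strongly between the normalised and the raw map. The lowest, chr2R:920001-930000, had a ratio of 0.110 from the normalised signal and 0.449 from the raw di-tags, of which it held 336 at short and 748 at long range. The next, chr2L:22450001-22460000, had a ratio of 0.129 and a raw ratio of 0.651. For chr2R:390001-400000 both were low, at 0.233 and 0.270. The bin chr2R:15560001-15570000 gave 0.2495 and 0.822, and chrX:19970001-19980000 gave 0.282 and 0.715. In 3 of these 5 bins the raw ratio was thus above the threshold. Over the whole set the medians of the ratio were close, at 0.502 from raw di-tags in member bins and 1.12 in other bins. A selection on raw di-tags took 1786 bins and shared 1376 of them with the member bins, which is 85.3% of the member bins and 77.0% of the raw selection.

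**Figure D1:**
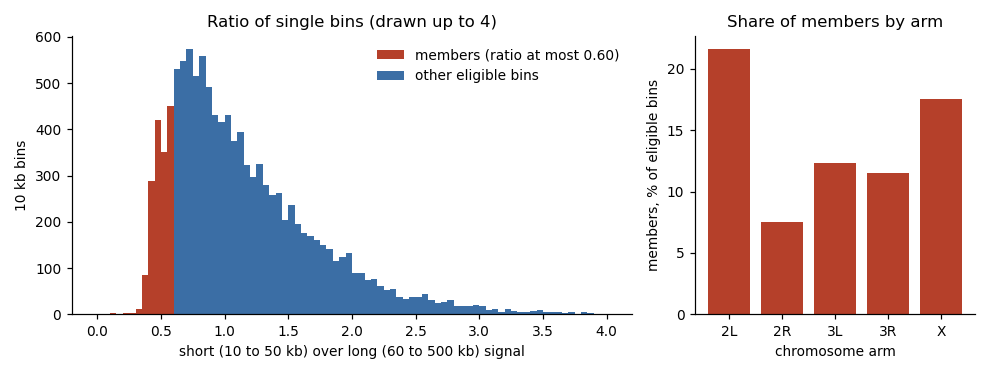
Number of 10 kb bins by their short over long ratio of normalised signal, with member bins in red and other eligible bins in blue (left), and member bins as a percent of the eligible bins of each chromosome arm (right). The threshold of 0.60 falls inside a single continuous distribution, and 2L has the highest share of member bins (21.6%) and 2R the lowest (7.51%).

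Member bins were unevenly spread over the chromosomes. On 2L, 480 of 2222 eligible bins were members (21.6%), so that 2L held 29.8% of the member bins with 19.4% of the eligible bins. The X followed with 376 of 2142 (17.6%), then 3L with 287 of 2322 (12.4%) and 3R with 319 of 2760 (11.6%). On 2R, 151 of 2010 bins were members (7.51%). The same threshold was applied to all arms, and the arm medians of the ratio over all eligible bins were lowest on 2L (0.908) and X (0.910) and highest on 2R (1.21).

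Within the arms the member bins were concentrated in few places. Of 118 windows of 1 Mb with at least 50 eligible bins, 41 held no member bin, and 17 windows together held 830 of the member bins. In the window from 17 to 18 Mb of 2L, 84 of 100 eligible bins were members. The windows on its sides held fewer, 30 of 100 from 16 to 17 Mb and 41 of 99 from 18 to 19 Mb. Further along, the windows from 14 to 15 Mb and from 15 to 16 Mb held 69 of 100 and 69 of 94. The windows from 13 to 14 Mb and from 19 to 20 Mb of 2L, on the outer sides of this stretch, held none. On the X, the window from 20 to 21 Mb held 59 of 95 and that from 14 to 15 Mb held 53 of 98. The first Mb of 2R, at its centromere end, held 44 of 56.

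The ends of the arms differed. Within 2 Mb of the centromere end 268 of 758 eligible bins were members (35.4%), with 56.8% on X, 47.2% on 3L, 41.3% on 2R, 28.4% on 2L and 13.6% on 3R. Within 1 Mb of the telomere end only 1 of 474 was (0.211%), and elsewhere 1344 of 10224 (13.1%). The totals of the member bins near the centromeres differed by arm. They were low on 2R, with a median of 0.458 of the arm median against 0.704 for the other bins there, and on 3L, with 0.400 against 0.838. On 3R they were 0.984 against 1.16, whereas on 2L they were 1.51 against 1.06 and on X 0.911 against 0.868. Over all arms, member bins near the centromeres had more di-tags with other chromosomes and arms, pooled 16.3% (95% Wilson interval 16.2 to 16.4), against 15.3% in the other bins of these ends. Of these, contacts with chromosome 4 and the heterochromatic scaffolds made up 2.63% of their di-tags against 2.00%. Both comparisons pool the arms, to which member and other bins contributed unequally, and neither was made within single arms. The part of the totals in the ratio of these bins was not tested.

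Long-range signal was raised in the member bins more than short-range signal was lowered, although the rule asked for neither separately. Relative to the mean of the arm at the same distances, the short-range signal of member bins had a median of 0.761 (quartiles 0.682 and 0.871), against 0.988 in other bins. The long-range signal had a median of 1.47 (quartiles 1.30 and 1.68), against 0.897. Both sides contributed in most bins, with 1351 of the 1613 member bins (83.8%) below the mean at short range and above it at long range. A further 192 were above the mean at both ranges, 66 were below it at both, and 2 were above it at short range and below it at long range. The last 2 had no eligible partner at short range and so no value.

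By distance, pairs of member bins had 0.63 of the mean signal of their arm at 10 kb, with a mean normalised signal of 462 per pair, against 790 between other bins. At 100 kb the mean signal was 160 between member bins and 95.3 between other bins. At 300 kb it was 66.5 and 20.1, and at 500 kb 28.6 and 8.97. The contacts of member bins therefore fell off with distance less steeply. Taken with any partner, a member bin passed the mean of its arm at 50 kb, reached its highest value of 1.80 times the mean at 340 kb, and was still at 1.61 at 500 kb. All these distances entered the rule.

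Values that the rule did not use were those inside the bin, beyond 500 kb and with other arms. Signal between fragments of the same 10 kb bin had a median of 0.606 of the arm median in member bins (quartiles 0.505 and 0.761), against 1.09 in other bins (quartiles 0.766 and 1.59). The lower contact at 10 to 50 kb thus extended to distances under 10 kb. On the single arms the medians lay between 0.551 and 0.649 for member bins and between 1.02 and 1.18 for other bins. Other bins of TADs of at least 120 kb had a median of 0.792, between both. In di-tags, a median of 2.23% of the cis di-tags of a member bin joined fragments of that bin, against 4.71% in other bins. Other bins of TADs of at least 120 kb had 3.21%. The cis total in this share includes the distances that the rule used.

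Summed over all distances beyond 500 kb, the member bins were slightly richer in contacts. Their summed signal at these distances had a median of 1.08 times the mean (quartiles 0.946 and 1.24), against 0.959 (quartiles 0.856 and 1.08), ranges that overlap. By distance this held only up to 2 Mb. With any partner, member bins had a mean of 1.42 from 510 kb to 1 Mb and 1.10 from 1 to 2 Mb, against 0.933 and 0.985 in other bins. Further out member bins were the poorer, with 0.980 against 1.00 at 2 to 5 Mb. From 5 to 10 Mb they had 0.978 against 1.00, and beyond 10 Mb 0.938 against 1.01. The median share of cis di-tags beyond 500 kb was 23.3% in member bins and 21.7% in other bins. This difference came mainly from 2L, where the shares were 26.5% and 21.5%. On 2R they were 20.1% and 19.6%, on 3L 22.6% and 22.4%, and on 3R 22.5% and 22.4%. On the X member bins had the lower share, 22.2% against 22.8%. The share of di-tags with other arms and chromosomes was lower in member bins, with medians of 10.4% and 11.9%. Other bins of TADs of at least 120 kb had 10.9%, closer to the member bins. Near the centromere ends the share pooled over the arms was higher in member bins than in other bins. The totals in all these shares include the distances that the rule used.

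**Figure D2:**
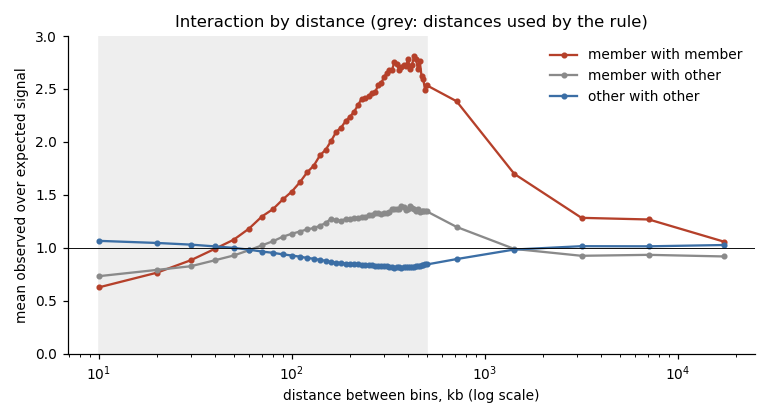
Mean normalised signal over the mean of the arm at the same distance, against the distance between bins in kb on a log scale, for pairs of member bins (red), member and other bins (grey) and other bins (blue). Pairs of member bins lie at 0.63 at 10 kb and 2.38 between 510 kb and 1 Mb, outside the grey range of distances that the rule used.

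Member bins lay next to each other in runs. They formed 293 runs of adjacent bins, of which 106 were single bins, and these held 6.57% of the member bins. The median run had 2 bins. The 45 runs of at least 10 bins held 992 member bins (61.5%), and 33 of these runs lay in a single TAD. Adjacent bins share most of their partners at long range, so that runs are partly built into the measure. Allowing a gap of 1 bin reduced the number of runs to 240.

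The longest run, chrX:14160001-14690000, covered 530 kb with a mean ratio of 0.432 and crossed a TAD boundary. The run chrX:11930001-12350000 was 420 kb long and matched a deposited TAD to the bin, with a mean ratio of 0.454. The runs that followed were chr2R:15720001-16120000 at 400 kb in a TAD of 470 kb and chr2L:15770001-16150000 at 380 kb in a TAD of 480 kb. Each reached one edge of its TAD, the end in the run on 2R and the start in the run on 2L, and stopped short of the opposite edge. On 3L the longest run was chr3L:18120001-18490000 with 370 kb in a TAD of 500 kb. The remaining 5 of the 10 longest runs were chrX:20540001-20900000, chr2L:17700001-18050000, chrX:9580001-9910000, chr2L:14660001-14970000 and chr2L:3870001-4180000. Their mean ratios were 0.448, 0.433, 0.500, 0.468 and 0.491. None of the 10 lay on 3R, where the longest run had 200 kb.

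The raw totals of these runs varied. In chrX:20540001-20900000 the median total was 1.02 of the arm median, and in chr2L:15770001-16150000 it was 1.18. In chr2L:17700001-18050000 the value was 0.697, in chr2L:3870001-4180000 it was 0.666 and in chrX:11930001-12350000 it was 0.729. Long runs therefore occurred in bins with high as well as low coverage.

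Large TADs held most member bins. TADs of at least 120 kb held 1517 of the 1613 (94.0%, 95% Wilson interval 92.8 to 95.1, counting error only), against 54.1% of all eligible bins. The share of member bins was 1.77% in TADs up to 40 kb, 1.82% in those of 50 to 110 kb, 6.38% at 120 to 190 kb, 25.01% at 200 to 290 kb and 69.3% at 300 kb or more. The 37 TADs of at least 300 kb held 884 member bins, 54.8% of the set. Among the 1301 TADs with an eligible bin, 161 held a member bin. In 67 of them more than 50% of the eligible bins were members, and in 21 all eligible bins were. The median size was 200 kb for TADs with a member bin and 60 kb for those with none. The TADs were called by the authors on the same map, so that their sizes and the ratio are not independent.

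Size alone did not fix the ratio. Of the TADs of at least 300 kb, 25 had more than 50% of their eligible bins as members, with a median ratio of 0.470, and 11 had fewer, with a median ratio of 0.657. One, chrX:12660001-12980000, had none and a median ratio of 0.804 over its 320 kb. The signal beyond 500 kb did not separate them cleanly either, with medians of 1.15 times the mean in the 25 and 0.958 in the 11, and 1.09 in the TAD with no member bin. In the 5 TADs of at least 10 eligible bins with the highest share, all eligible bins were members, and these TADs measured 300 to 420 kb. They were chrX:11930001-12350000, chr3L:23730001-24130000, chr2R:650001-1000000, chrX:9580001-9900000 and chr2L:3880001-4180000. The ones on 3L and 2R lay at centromere ends and had totals of 0.384 and 0.458 of the arm median. They held only 10 and 27 eligible bins over 400 and 350 kb.

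**Figure D3:**
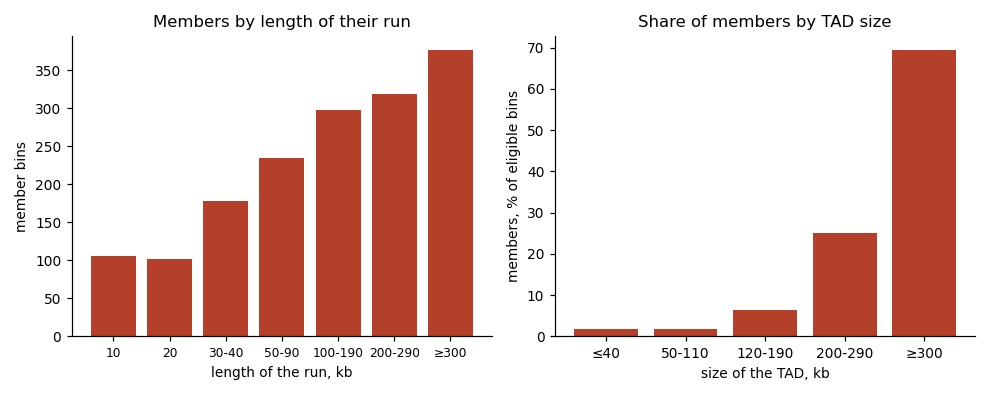
Number of member bins by the length in kb of the run of adjacent member bins that holds them (left), and member bins as a percent of eligible bins by the size in kb of the TAD (right). Runs of at least 100 kb hold 992 of the 1613 member bins, and the share climbs with TAD size to 69.3% in TADs of at least 300 kb.

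Within TADs member bins were less often at the borders than other bins, and the difference was smaller against the other bins of the same TADs. The part of TAD size in this was not tested. Of the member bins in TADs 8.87% were the first or last bin, against 24.4% of the other bins. Against the other bins of the same TADs the figure was 10.5%, close to that of the member bins. In TADs of at least 300 kb, 3.62% of member bins (32 of 884) and 9.21% of other bins (36 of 391) were first or last. Here 47.1% of the edge bins were members, 64.8% of the bins 10 kb further in, 56.5% at 50 kb, 71.4% at 100 kb and 87.1% at 150 kb or more. The median ratio was 0.614 at the edge and 0.455 at 150 kb or more. In TADs of 200 to 290 kb the share was 24.1% at the edge, 30.6% at 10 kb, 20.5% at 50 kb, 27.6% at 110 kb (21 of 76 bins) and 32.0% at 120 kb (16 of 50). The share in this class was thus lowest partway in and higher towards both the edge and the middle. In TADs of 120 to 190 kb it was 7.73% at the edge, 8.86% at 10 kb, 4.18% at 50 kb and 3.42% at 80 kb, lower in the middle than at the edge. The positions furthest from an edge occur only in the larger TADs of each class, so that position and TAD size are mixed in these shares.

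The ends of the runs of at least 10 bins coincided with a TAD boundary in 21 of 90 cases (23.3%), compared with 11.1% of all edges between bins. Within 10 kb of a boundary there were 39 ends (43.3%), compared with 32.7%. Run ends were thus more often at or near a boundary than bin edges in general, although more than 50% of them lay further than 10 kb from one.

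**Figure D4:**
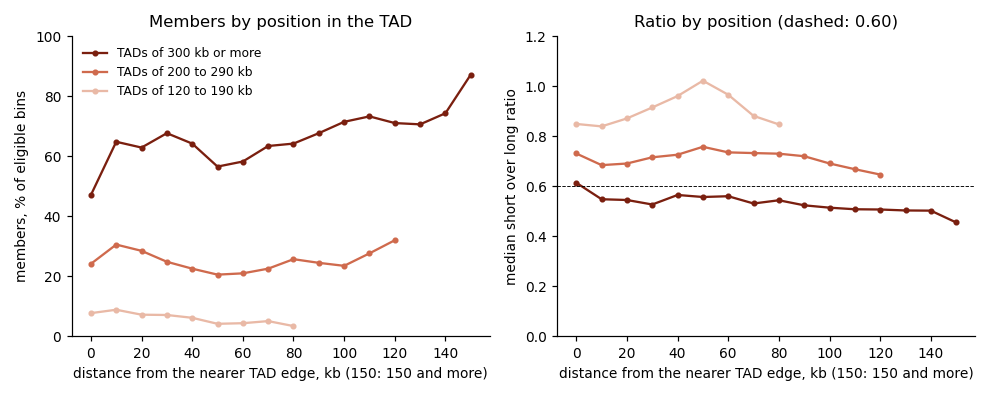
Member bins as a percent of eligible bins (left) and the median short over long ratio (right), against the distance in kb from the nearer edge of the TAD, for TADs of 3 size classes and positions with at least 50 eligible bins. In TADs of at least 300 kb the share is 47.1% at the edge and 87.1% at 150 kb or more, in TADs of 200 to 290 kb it is 24.1% at the edge, 20.5% at 50 kb and 32.0% at 120 kb, and in TADs of 120 to 190 kb it is 7.73% at the edge and 3.42% at 80 kb.

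Contact among member bins beyond 500 kb was compared with that of the other bins by the observed over expected signal, which divides by the mean of the arm at the same distance, empty pairs counted as 0. Over 256233 pairs of member bins, which held 193203 di-tags, the mean was 1.29, against 0.94 between member and other bins and 1.01 between other bins. The counting interval of the first was 1.29 to 1.30, which covers only the counting error of the total of di-tags. The mean weighs all pairs alike, and 90879 of them lay beyond 10 Mb with 10109 di-tags, so that the interval is too narrow. By arm the mean between member bins was 1.41 on 2L, 1.43 on 2R, 1.17 on 3L, 1.17 on 3R and 1.26 on X. All 5 arms lay above 1.

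The size of the excess depended on the distance. Between 510 kb and 1 Mb the mean was 2.38 between member bins (single arms 1.87 to 4.74), against 1.20 for mixed pairs and 0.894 between other bins. It was 1.70 between 1 and 2 Mb against 0.984 between other bins, although on 3L only 1.00, and 1.28 between 2 and 5 Mb against 1.02. From 5 to 10 Mb it was 1.27 against 1.01, and beyond 10 Mb 1.06 against 1.03. The excess was thus largest at the distances that border on the range of the rule. With only bins of TADs of at least 120 kb, the mean beyond 500 kb was 1.32 between member bins, 1.04 for mixed pairs and 1.02 between other bins. The excess was thus of similar size when only large TADs were compared. Without the 2 Mb at the centromere ends the mean was 1.33.

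The normalisation decided much of the far part of this excess. With raw di-tags in place of the normalised signal, and the same member bins, the mean beyond 500 kb was 1.07 between member bins and 1.04 between other bins. On 2R (0.871), 3L (0.888) and X (1.02) it was below that of the other bins, which had 1.03, 1.04 and 1.05. With raw di-tags balanced so that all bins had equal totals, it was 1.11 and 1.04, and above 1 on all arms. Between 510 kb and 1 Mb the excess was present on every map and every arm, with 1.84 against 0.951 in raw di-tags and 2.04 against 0.932 in balanced counts. Between 2 and 5 Mb it shrank to 1.13 against 1.04 in raw and 1.12 against 1.04 in balanced counts. From 5 to 10 Mb raw di-tags gave 1.04 against 1.04 and balanced counts 1.08 against 1.04. Beyond 10 Mb the order turned round, with 0.843 between member bins and 1.06 between other bins in raw, and 0.902 and 1.05 in balanced counts. On 3L it was already reversed from 1 to 2 Mb, with 0.767 against 1.03 in raw and 0.973 against 1.02 in balanced counts. It was also reversed there from 2 to 5 Mb (0.915 against 1.05 and 0.931 against 1.04). On 2R it was reversed from 1 to 2 Mb in raw di-tags (0.982 against 1.03). From 5 to 10 Mb raw di-tags were reversed on 3L (0.959 against 1.04), 3R (1.01 against 1.03) and X (1.02 against 1.05). On 2L they were not (1.13 against 1.09), and 2R has no value there. In balanced counts only 3R was reversed at this distance (1.01 against 1.03). When the members themselves were chosen by the ratio of raw di-tags, their mean beyond 500 kb was 1.02, below the 1.06 between the other bins.

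**Figure D5:**
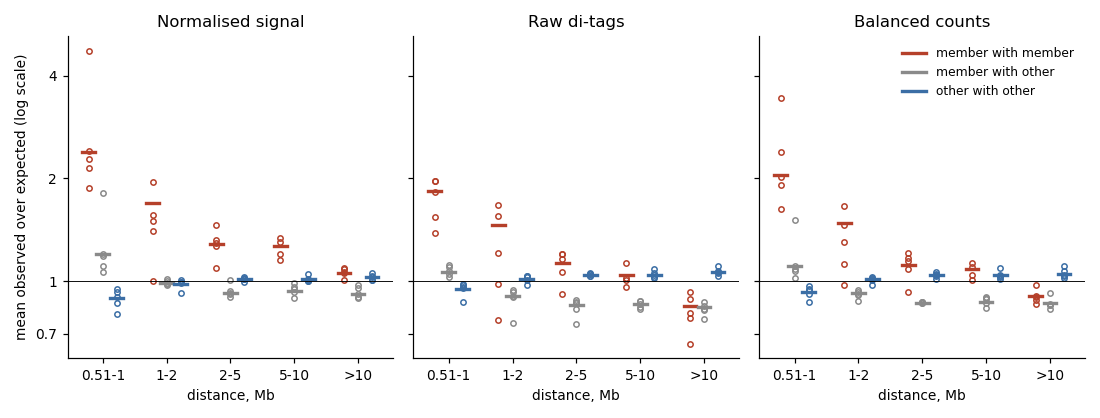
Mean observed over expected contact on a log scale by distance class in Mb, for pairs of member bins (red), member and other bins (grey) and other bins (blue), from the normalised signal, raw di-tags and balanced counts with the same member bins. Bars are all arms together and circles single arms (2R has no pair of member bins from 5 to 10 Mb). From 510 kb to 1 Mb pairs of member bins are highest on all 3 maps (2.38, 1.84 and 2.04), and beyond 10 Mb they are below pairs of other bins in raw and balanced counts.

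Taken bin by bin on the normalised map, 1264 of 1613 member bins (78.4%) had a mean above 1 with the member bins beyond 500 kb, against 3520 of 9843 other bins (35.8%) and 41.8% of all eligible bins. The median was 1.24 (quartiles 1.03 and 1.49) in member bins and 0.908 in other bins. Other bins of TADs of at least 120 kb had a median of 0.994 with the member bins, and 48.8% of them were above 1. With the other bins as partners, member bins had a median of 0.921. Neighbouring bins share these contacts and are not independent.

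The 85 runs of at least 5 bins group the same pairs of member bins into fewer, larger units. Their values are therefore not independent of those above. Of the 85 runs, 76 had a mean above 1 with member bins beyond 500 kb, with a median of 1.25 (0.860 to 2.30). In 85 of 85 the mean with member bins was higher than with the other bins (median 0.918). Among the 10 longest, chr2L:17700001-18050000 had 1.67 with member bins and 0.868 with other bins, and chrX:11930001-12350000 had 1.54 and 1.01. The lowest of these 10 was chr3L:18120001-18490000 with 1.02 and 0.886. All these values are from the normalised map and include the distances from 510 kb to 1 Mb, which border on the range of the rule. Values from raw or balanced counts are not given for the runs.

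Between single runs the contact varied widely. There were 647 pairs of runs of at least 5 bins more than 500 kb apart on an arm, of which 438 (67.7%) had a mean above 1, with a median of 1.18 (quartiles 0.921 and 1.51). Of the 83 pairs separated by up to 2 Mb, 79 were above 1, against 105 of 148 at 2 to 5 Mb and 254 of 416 over 5 Mb. Values above 2 were seen in 38 pairs, of which 27 were on 2L, among its 223 pairs. Elsewhere single pairs stood out less often, with 5 of 169 on 3L, 4 of 134 on 3R, 1 of 25 on 2R and 1 of 96 on X. Of the 342 pairs with at least 30 di-tags, 34 were above 2.

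On the normalised map the pairs with the highest contact, among those with at least 30 di-tags, came from a short stretch of 2L. The run chr2L:16920001-17140000 met chr2L:18150001-18440000 at 6.21 times the mean of the arm (5.96 to 6.46 from 2392 di-tags), across 1020 kb. It met chr2L:18060001-18130000 at 5.28 and chr2L:17700001-18050000 at 4.77. The run beside it, chr2L:17150001-17370000, met chr2L:18150001-18440000 at 4.30 and chr2L:18060001-18130000 at 3.66. These runs belong to 3 TADs, chr2L:16920001-17380000, chr2L:17500001-18120000 and chr2L:18160001-18440000 and the first of them met both others. They lie in and around the window of 2L from 17 to 18 Mb, where 84 of 100 bins were members. The TADs chr2L:16920001-17380000 and chr2L:17500001-18120000 had low totals, with medians of 0.673 and 0.766 of the arm median. The normalisation raises bins with low totals, and no raw or balanced observed over expected values are given for these pairs.

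A second group on 2L joined runs of the TADs chr2L:15270001-15660000 and chr2L:15770001-16250000, at 3.03, 2.93 and 2.62 times the mean. These TADs had high totals, with medians of 1.29 and 1.25 of the arm median. In raw di-tags this group was the denser. The pair at 2.93 held 1402 di-tags over 84 pairs of bins, across 600 kb. The pair at 4.77 in the first group held 4005 over 770, across 570 kb. On 3R, chr3R:23560001-23610000 met chr3R:24170001-24360000 at 3.70 (904 di-tags). The pair furthest apart among the 10 highest was chr3R:13050001-13210000 with chr3R:17990001-18050000, at 2.69 across 4790 kb. It rested on 100 di-tags, with a counting interval of 2.19 to 3.27. The other highest pairs were separated by 1020 kb or less.

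Between arms, where distance along the chromosome plays no part, the median of the normalised signal was near the mean. Over the 10 pairs of arms, the normalised signal between member bins had a median of 1.01 times the mean of the pair of arms (0.898 to 1.25), against 1.02 between other bins, and was above 1 in 7. In raw di-tags over what the totals of the bins give, it was 1.12 (1.09 to 1.19) and above 1 in 10 of 10, against 1.00 between other bins. Mixed pairs had 0.941 in the normalised signal and 0.983 in raw di-tags. Divided by the mean of the pair of arms, as the normalised signal was, the raw di-tags between member bins were below 1 in all 10 pairs of arms (0.656 to 0.833). The values between arms thus depended on how the totals of the bins were taken into account.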

How the data were processed

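The deposited files hold 1 Hi-C map of Kc cells, in which the authors had combined both replicates. The authors aligned reads to release 5 (dm3) with HiCUP, for which the submitters' notes name Bowtie2 2.2.6, and deposited, per pair of 10 kb bins, the raw di-tag count. They also deposited a normalised signal from GOTHiC for the same pairs and TAD coordinates from HiCseg, from which the weakest 10% of borders had been removed. The normalised signal weights a bin by its total, so that bins with few di-tags are raised. Member bins, region rules and lists were chosen with earlier results of these data known.

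Ratios, runs, positions and observed over expected values were computed with Python 3.11.15, numpy 2.4.6, scipy 1.17.1 and pandas 2.3.3, and drawn with matplotlib 3.10.9, after the scripts had been tested on simulated data. Observed over expected divides by the mean of the arm at that distance over eligible bins, empty pairs as 0. Named regions are the 10 longest runs, the 5 TADs richest in member bins, the 5 lowest ratios, bins nearest to the threshold and the 10 run pairs with the highest contact. Balanced counts came from 200 rounds of iterative correction. Thresholds, distances, TAD sizes, arms and the normalisation were varied, of which the raw and balanced maps with unchanged member bins were added after seeing the data. There were no groups to compare and no test was made. Intervals (95%) cover counting error only, and for the mean contact between member bins beyond 500 kb not all of it. Replicate maps and gene annotation were not used here.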

Additional observations from a re-analysis of the deposited data

How the results depend on the processing

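With 1 pooled map there is no spread between replicates, pairs of bins with few di-tags are noisy, and 76.0% of listed pairs rest on 1 di-tag. No paired analysis was possible because the map combines both replicates.

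The number of member bins was 1162 at a ratio of 0.55, 2143 at 0.65, 1786 from raw di-tags and 1680 from balanced counts. With short range taken from 20 kb it was 5567, of which 77.8% lay in TADs of at least 120 kb and 19.1% were first or last in their TAD, with a mean contact beyond 500 kb of 1.02 (1.06 between other bins), 22.4% of di-tags beyond 500 kb and a longest run of 113 bins. Leaving out the 10 kb distance removes the largest part of the short-range signal. In TADs of at least 200 kb lay 81.3% of member bins. The share of first or last bins was 7.49% at a ratio of 0.55, 7.20% in balanced counts and 18.3% when 2 bins at each end counted.

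The mean contact between member bins beyond 500 kb (1.29) was 1.41 at a ratio of 0.55, with 23.8% of di-tags beyond 500 kb, and 1.22 at 0.65. It was 1.23 beyond 1 Mb, 1.19 beyond 2 Mb, 1.31 without 1 Mb at arm ends and 1.33 without 2 Mb at centromere ends. Without 2L it was 1.22, without 3L 1.32, without 3R 1.32 and without X 1.31. On listed pairs only it was 3.97, against 3.33 between other bins. Chosen and measured in raw di-tags it was 1.02, against 1.06 between other bins, and in balanced counts 1.13 against 1.04. With unchanged member bins it was 1.07 in raw and 1.11 in balanced counts.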

Other observations

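A small part of the member bins, 95 in 38 TADs, lay in TADs below 120 kb. Their median ratio was 0.529. Relative to the arm median, their signal was 0.825 at short and 1.49 at long range, close to the 0.790 and 1.505 of member bins in larger TADs. Of these, 26 lay within 2 Mb of a centromere end and 15 were next to a member bin of a larger TAD. Away from the centromere ends, member bins had 10.1% of their di-tags with other arms and chromosomes (95% Wilson interval 10.1 to 10.2), against 12.1% in other bins there.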
